A study of Homo sapiens with 15 samples.

Results

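The genes described here are 47 genes of autophagy and of the lysosome, picked by symbol for their known roles. The choice was made with earlier results of these data known, so the shares of them called only describe this list. The genes were matched to the Ensembl identifiers of a table of 60664 genes. They were measured by RNA sequencing in HCT116 cells, a human colorectal carcinoma line, exposed for 72 h to 1 of 4 agents at 0.0154 mg/mL. AE, TE and SE are extracts of oil production waste products (OPWPs) from Apulia, Tuscany and Sicily, enriched in the olive phenol hydroxytyrosol, and HTyr is synthetic hydroxytyrosol. Each agent and the untreated cells have 3 libraries, labelled as biological replicates, which gives 12 treated and 3 untreated libraries. The labels name no vehicle for the untreated cells and do not say how the replicate cultures were made, so the p-values speak for the spread of these libraries only. In the titles of the TE and SE samples a bracketed code names the other region. The region in words, the sample descriptions and the column names of the study's own table, which holds the same values under TE and SE, all give the assignment used here. Values are in TPM, a share of each library corrected for transcript length, so the depth of a library is not known, and fewer cells and less RNA per cell cannot be told apart.

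Autophagy encloses cytoplasmic material in a double membrane, the autophagosome, and hands it to the lysosome for breakdown. The ULK and Beclin 1 complexes start the process, WIPI proteins and ATG9 supply the membrane, and the conjugation of ATG12 to ATG5 and of LC3 or GABARAP proteins to lipid makes the membrane grow around cargo that receptors such as p62 (SQSTM1), NBR1 and optineurin hold. The lysosome is kept acidic by the V-ATPase proton pump, and its hydrolases digest what arrives. TFEB, TFE3 and MITF are related transcription factors that bind the sequence CACGTG in promoters of many of these genes. In colorectal tumour cells the pathway is known as a source of nutrients under stress.

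Of the 47 genes, 45 had at least 1 TPM in at least 3 libraries and were tested. MITF reached 1 TPM in 1 library only, and MAP1LC3A, a minor LC3 gene, stayed under 1 TPM in all 15. A gene is called higher or lower where the adjusted p of the limma fit over all 14899 genes with such a level is under 0.05 and the change, fitted on log2(TPM + 0.5), is over 1.5-fold. With SE, 7 of the 45 genes were called higher and 10 lower, 37.8% of them, where the same rule called 28% of all genes (17% higher, 11% lower). With HTyr, 5 were higher and 6 lower, 24.4% against 16.2% of all genes (7.8% higher, 8.45% lower). With AE, 6 were higher and 2 lower, 17.8% against 16.6% of all genes (10.7% higher, 5.81% lower). With TE the counts were also 6 and 2, 17.8% against 12.7% of all genes (7.46% higher, 5.26% lower). In the mean of the 4 agents, 6 rose and 5 fell, 24.4% against 17.9% of all genes (10.4% higher, 7.43% lower).

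Over the 45 genes the log2 fold change had a median of 0.14 for AE, 0.08 for TE, 0.03 for SE and -0.02 for HTyr. Over all genes tested it had a median of 0.09 for AE, 0.05 for TE, 0.09 for SE and -0.04 for HTyr. The list as a whole therefore had medians close to those of all genes, and its members went both ways. Median-ratio scaling of the libraries gave 6 higher and 3 lower with HTyr, and 5 higher and 3 lower with AE. Without mitochondrially encoded genes 5 were higher and 3 lower with HTyr. Leaving out untreated replicate 1 left 7 of the 11 calls with HTyr, 3 higher and 4 lower.

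All 4 agents gave 7 calls in common. MCOLN1, CTSA, GLA, ATP6V0D1 and ATP6V1H were higher with each agent, 5 of 45 where 4.66% of all genes were, and ATG12 and OPTN lower with each, 2 of 45 where 3.19% of all genes were. At least 1 agent changed 17 genes (33.9% of all genes tested did so) and 28 were called with none. No gene was called in opposite directions by different agents. The 4 comparisons share the same 3 untreated libraries. In 9 genes all 12 treated libraries lay above all 3 untreated ones (15.3% of all genes), and in 11 all 12 lay below (11.8%).

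When the roles are put into 2 groups, a grouping made after the values were seen, the higher calls lie among lysosomal genes and the lower ones, PSAP apart, among autophagy genes. Among the 26 tested autophagy genes, from the transcription factors to the tether, 0 were called higher and 9 (34.6%) lower with at least 1 agent. By agent, 9 were lower with SE (11% of all genes were) and 6 with HTyr (23.1%, against 8.45%). With AE and TE only 2 each were lower (7.69%), close to the 5.81% and 5.26% of all genes. Among the 19 tested lysosomal genes, 7 (36.8%) were called higher and 1, PSAP, lower. Of all genes tested, 19.7% were called higher and 14.2% lower with at least 1 agent. With SE the autophagy genes had a median log2 fold change of -0.20 and the lysosomal genes one of 0.35. With HTyr these medians were -0.25 and 0.12, with AE -0.06 and 0.32, and with TE -0.11 and 0.27. This split is a description of these libraries and was not tested. It counts genes, not their summed level. The summed TPM of the lysosomal genes was 1266 to 1293 with AE and 1304 to 1316 with TE. It was 1155 to 1175 with SE and 1062 to 1136 with HTyr, against 1236 to 1284 in untreated cells. A large part of each sum is PSAP, with 324 to 339 TPM with SE, 387 to 410.1 with HTyr and 575 to 606 in untreated cells. The sums therefore do not show the level of the other 18 genes, and the lower sums with SE and HTyr contain the fall of PSAP. Among these 19 genes, 8 lay above and 3 below all untreated libraries in all 12 treated ones (15.3% and 11.8% of all genes).

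**Figure D1:**
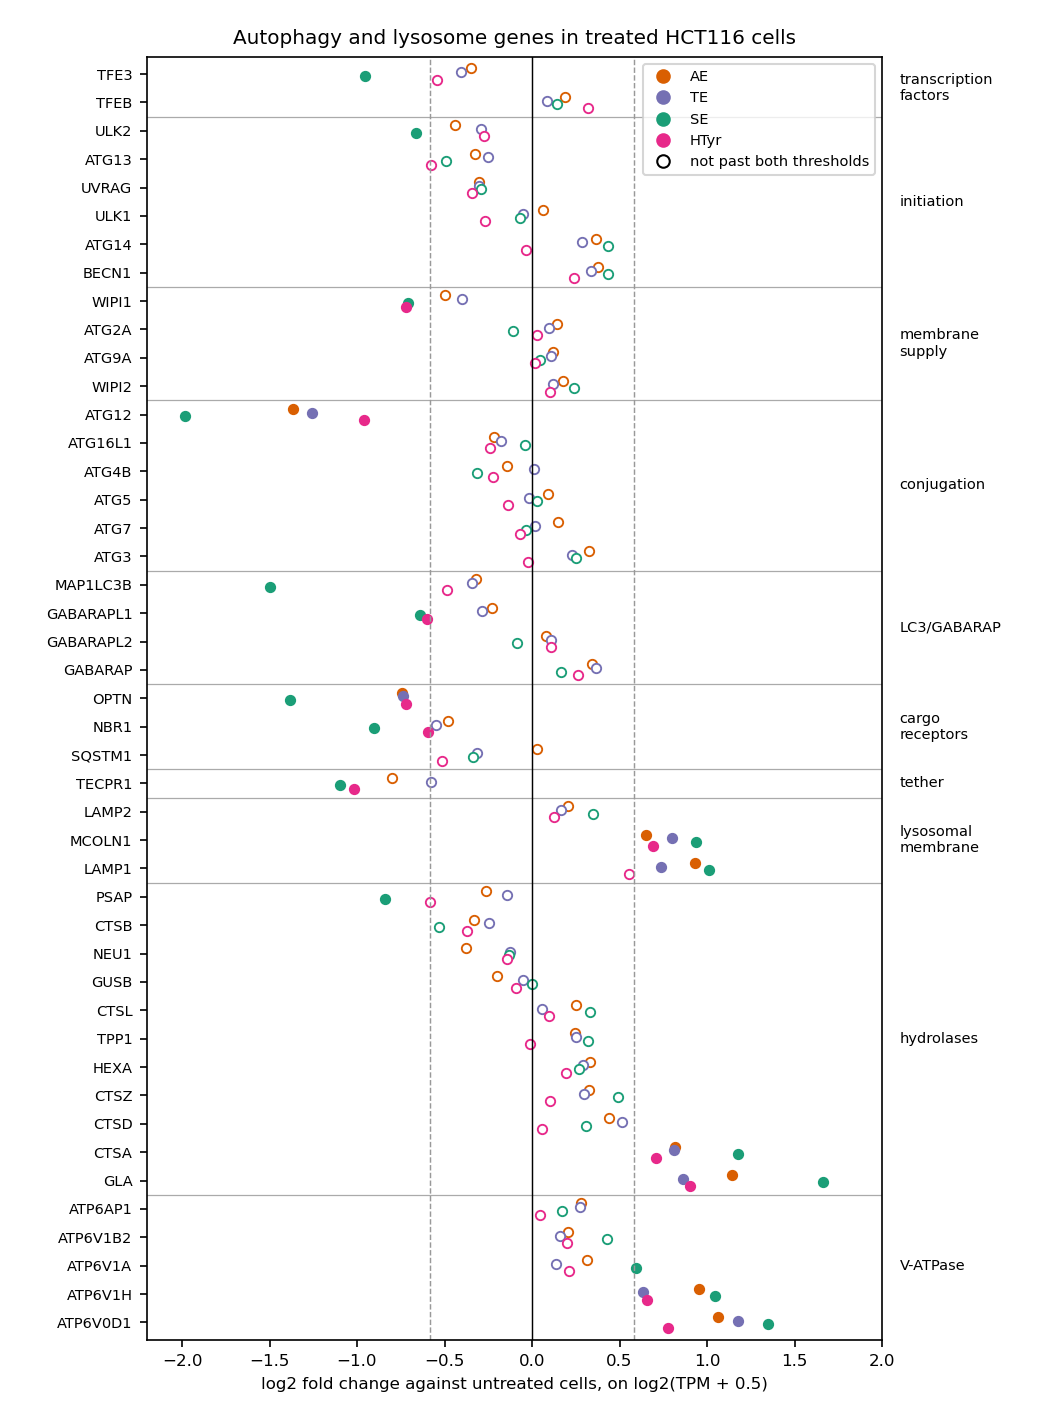
The log2 fold change of each of the 45 tested genes against untreated cells (x axis, log2(TPM + 0.5) scale) is shown by role for AE, TE, SE and HTyr. Filled points passed the adjusted p and the dashed 1.5-fold threshold, and the filled points of the upper blocks lie left of 0 while those of the lower blocks lie right of it, with PSAP as the exception.

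HCT116 is an epithelial line, and 8 of 10 epithelial markers reached 1 TPM in 3 libraries, with VIL1 and CDX1 under it. Their summed level was 2533 to 3489 TPM in treated libraries and 4646 to 4738 TPM in untreated ones, and the part of this difference in the results was not tested. Leukocyte markers were near 0 (0 of 9 at that level, sums of 0.17 to 0.71 TPM treated and 0.22 to 1.24 TPM untreated), as were endothelial ones (0 of 5, 0.07 to 0.62 and 0.27 to 0.41 TPM). Of 6 fibroblast markers 1, COL1A1, reached the level (sums of 4.47 to 9.02 TPM treated and 6.34 to 8.01 TPM untreated). Mitochondrially encoded genes held 17.0% to 21.5% of TPM in treated and 15.6% to 18.7% in untreated libraries.

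Among proteins of the lysosomal membrane, LAMP1 and MCOLN1 rose. LAMP1 (ENSG00000185896, chr13:113297239-113323672, plus strand, build GRCh38, GENCODE annotation) encodes the most abundant glycoprotein of that membrane. Its level was 80.5, 76.1 and 81.4 TPM with AE, 68.6, 70.7 and 68.5 with TE, 85.2, 81.2 and 84.5 with SE, 55.9, 63 and 64.4 with HTyr, against 40.4, 41.2 and 42.3 TPM in untreated cells. All 12 treated libraries were above all untreated ones, SE and AE highest and HTyr lowest of the treated. LAMP1 had log2 fold changes of 0.93 (AE), 0.74 (TE), 1.01 (SE) and 0.56 (HTyr, standard error 0.06 each, adjusted p at most 6.93e-06), and the HTyr value was under the fold threshold. It passed that threshold without HTyr replicate 1 (0.62). MCOLN1 (ENSG00000090674, chr19:7522624-7534009, plus strand), which encodes the lysosomal calcium channel TRPML1, is a low gene: it had 6.07, 5.30 and 6.53 TPM with AE, 6.72, 6.16 and 7.10 with TE, 7.46, 6.11 and 8.68 with SE, 4.81, 6.85 and 6.96 with HTyr, against 2.95, 3.87 and 4.09 TPM in untreated cells. Treated and untreated libraries did not overlap, and untreated replicate 1 was the lowest of the 15. MCOLN1 had log2 fold changes of 0.65 (AE), 0.80 (TE), 0.93 (SE) and 0.69 (HTyr, standard error 0.16 each, adjusted p at most 0.00557). Without untreated replicate 1 the values were 0.53 with AE and 0.57 with HTyr, both under the fold threshold. LAMP2, the partner of LAMP1, was called with no agent and had 27.8 ± 1.89 TPM with AE, 27 ± 0.894 with TE, 30.8 ± 0.616 with SE, 26.3 ± 1.43 with HTyr, against 24.1 ± 0.954 TPM in untreated cells (SD, n = 3 each).

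The hydrolases went in more than 1 direction. GLA (ENSG00000102393, chrX:101393273-101408012, minus strand), alpha-galactosidase A, which removes galactose from glycolipids, had 26.4, 31.3 and 27.6 TPM with AE, 21.1, 23 and 25.9 with TE, 36.2, 43.2 and 43.7 with SE, 25, 22 and 25.1 with HTyr, against 12.4, 12.8 and 12.6 TPM in untreated cells. The untreated libraries were the lowest and closely spaced, and the SE libraries stood above every other. GLA had log2 fold changes of 1.14 (AE), 0.86 (TE), 1.66 (SE) and 0.90 (HTyr, standard error 0.10 each, adjusted p at most 1.8e-05). Its exons share 557 bases with the antisense ribosomal protein gene RPL36A, which averaged 1274 to 1447 TPM over the agents and 1666 TPM in untreated cells. The kit marked strand, but the sources used here do not say whether counting used it, so reads from the shared stretch cannot be told apart.

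CTSA (ENSG00000064601, chr20:45890144-45898949, plus strand), cathepsin A, the protease that also protects beta-galactosidase and neuraminidase, had 39, 34.5 and 37.7 TPM with AE, 36.6, 39.6 and 34.3 with TE, 48.4, 46.9 and 47.2 with SE, 32.9, 35.5 and 34.3 with HTyr, against 17.4, 20.6 and 24.9 TPM in untreated cells. Every treated library was above the untreated ones and every SE library above those of AE, TE and HTyr, which overlapped each other. CTSA had log2 fold changes of 0.82 (AE), 0.81 (TE), 1.18 (SE) and 0.71 (HTyr, standard error 0.10 each, adjusted p at most 0.000112). PSAP (ENSG00000197746, chr10:71816298-71851251, minus strand), the precursor of the saposins that present sphingolipids to lysosomal enzymes, was the most abundant of the 47 genes and had 491, 502 and 490.2 TPM with AE, 548, 519 and 545 with TE, 324, 332 and 339 with SE, 393, 387 and 410.1 with HTyr, against 602, 575 and 606 TPM in untreated cells. Every treated library was below the untreated ones, SE the lowest, HTyr next and TE closest to untreated cells. PSAP was called lower with SE (log2 fold change -0.84, standard error 0.04, adjusted p = 2.42e-09), and with HTyr it lay just inside the fold threshold at -0.58 (adjusted p = 3.91e-07). The HTyr value passed it without untreated replicate 2 and without HTyr replicate 3 (-0.61 each).

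None of the other 8 hydrolases was called with any agent. Cathepsin B (CTSB), a cysteine protease, had 159.9 ± 5.58 TPM with AE, 169.9 ± 4.05 with TE, 139 ± 1.81 with SE, 156 ± 7.57 with HTyr, against 202 ± 9.08 TPM in untreated cells (SD, n = 3 each), with all 12 treated libraries below the untreated ones and log2 fold changes of -0.33, -0.25, -0.53 and -0.37 with AE, TE, SE and HTyr. The neuraminidase NEU1 also had every treated library below the untreated ones (-0.38 with AE, -0.13 with TE). HEXA, a subunit of beta-hexosaminidase, had every treated library above (0.33 with AE, 0.19 with HTyr). Cathepsin D (CTSD), an aspartic protease, averaged 45.8 ± 2.05 TPM with AE, 48.2 ± 1.70 with TE, 41.8 ± 2.75 with SE, 35.1 ± 4.35 with HTyr, against 33.7 ± 3.65 TPM in untreated cells (SD, n = 3 each). CTSL, CTSZ, TPP1 and GUSB, which encode further cathepsins, a tripeptidyl peptidase and beta-glucuronidase, had log2 fold changes in the mean of the 4 agents of 0.18, 0.30, 0.20 and -0.09.

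The V-ATPase pump has a membrane sector, V0, and a catalytic sector, V1, and a gene of each rose with every agent. ATP6V0D1 (ENSG00000159720, chr16:67438014-67481181, minus strand), the d subunit of V0, had 34.7, 30.7 and 32.2 TPM with AE, 33.5, 37.1 and 35.1 with TE, 42.3, 37.4 and 39.4 with SE, 22.7, 28.6 and 28.8 with HTyr, against 11.3, 17.2 and 18.2 TPM in untreated cells. All treated libraries exceeded all untreated ones, with untreated replicate 1 the lowest. ATP6V0D1 had log2 fold changes of 1.07 (AE), 1.18 (TE), 1.35 (SE) and 0.78 (HTyr, standard error 0.14 each, adjusted p at most 0.000763). Without untreated replicate 1 the HTyr value was 0.57, under the fold threshold. ATP6V1H (ENSG00000047249, chr8:53715543-53843558, minus strand), the V1 subunit that couples the sectors, had 25.9, 23.3 and 26.7 TPM with AE, 19.2, 20.8 and 20.6 with TE, 25.6, 25.9 and 29.5 with SE, 18.9, 22.6 and 20.3 with HTyr, against 12.7, 14.5 and 11.4 TPM in untreated cells. No treated library overlapped the untreated ones, and AE and SE lay above TE and HTyr. ATP6V1H had log2 fold changes of 0.95 (AE), 0.64 (TE), 1.04 (SE) and 0.66 (HTyr, standard error 0.10 each, adjusted p at most 0.000212), and without untreated replicate 3 those with TE (0.56) and HTyr (0.58) were under the fold threshold.

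The catalytic subunit gene ATP6V1A was called higher with SE alone (0.60, adjusted p = 7.2e-06), with 22.8 ± 1.81 TPM with AE, 20.1 ± 0.730 with TE, 27.8 ± 1.26 with SE, 21.2 ± 1.17 with HTyr, against 18.2 ± 0.359 TPM in untreated cells (SD, n = 3 each). Its SE value was inside the fold threshold without untreated replicate 2 (0.58) or SE replicate 2 (0.57), and 0.49 under median-ratio scaling. ATP6V1B2 and ATP6AP1, another V1 subunit and an accessory protein, were called with no agent and had log2 fold changes of 0.25 and 0.19 in the mean of the 4. All 5 V-ATPase genes had a value above 0 with every agent.

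**Figure D2:**
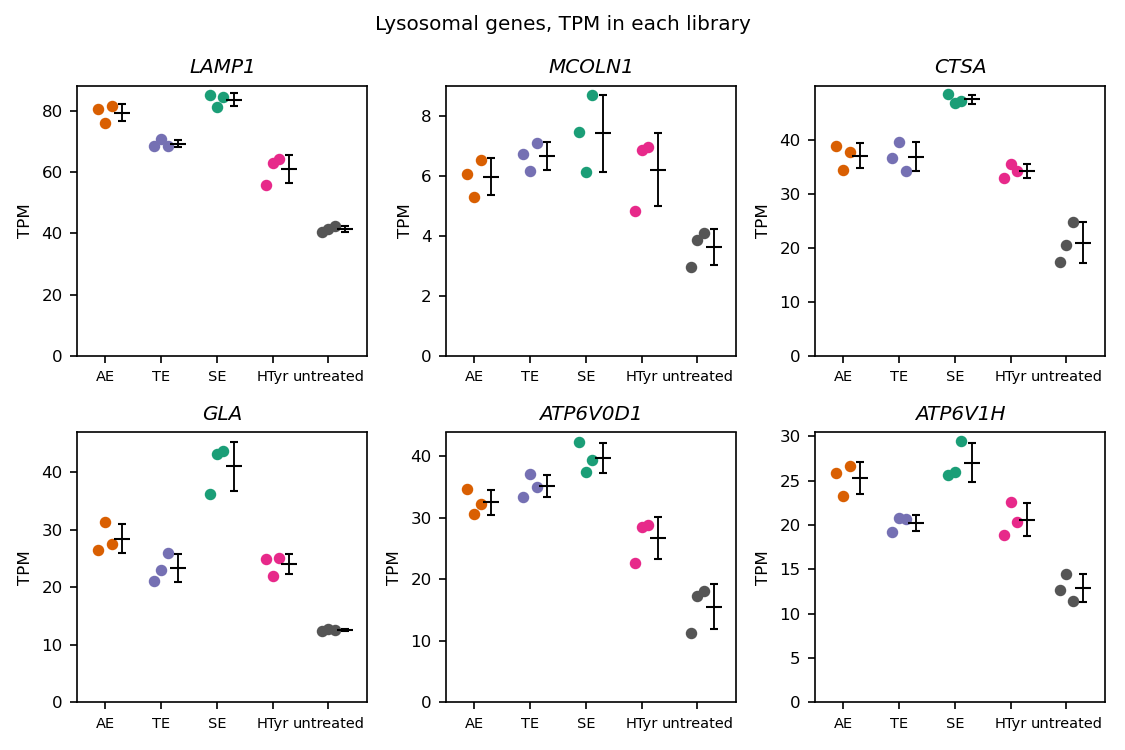
TPM of 6 lysosomal genes (y axis, from 0) in each library, with AE, TE, SE, HTyr and untreated cells from left to right. Points are libraries and the black mark is the mean ± SD (n = 3); in each panel the 3 untreated points are below all 12 treated points.

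The promoters of these genes are shown because TFEB and TFE3 are known to bind CACGTG, and LAMP1, MCOLN1 and CTSA carry it more than once. So does ATG3, which was called with no agent. In the RefSeq windows of build GRCh38.p14, from 250 bases before to 50 bases after each start, the 6 letters (the same on both strands) occurred in 8 of the 38 members with a window, ATG14, ATG3, ATP6V0D1, CTSA, CTSD, LAMP1, MCOLN1 and NEU1, and in 7.26% of all 35116 windows. Counted by gene, as the members are, the share among all genes tested with a window was 12.5%. Of members called higher with at least 1 agent, 4 of the 5 with a window held it (LAMP1, MCOLN1, CTSA and ATP6V0D1), of those called lower 0 of 9, and of those with no call 4 of 23. Over all genes the shares were 13.0% of those called higher and 11.2% of those called lower in the mean of the 4 agents. That rule differs from a call with at least 1 agent, so these shares are not like for like. The exception among those called higher was GLA, whose window lacks the letters. NEU1 holds them, yet all its treated libraries were below the untreated ones. A match describes these windows and is not evidence of binding. The stretches printed are a selection and show no rule that ties the letters to a direction. The stretches below run up to the start in LAMP1 (200 bases, chr13:113297039-113297238 on the plus strand), MCOLN1 (60 bases, chr19:7522564-7522623 on the plus strand) and CTSA (60 bases, chr20:45891275-45891334 on the plus strand), and from 75 to 16 bases before it in ATP6V0D1 (chr16:67481173-67481232 on the minus strand). ATG12 (chr5:115841566-115841625 on the minus strand) and MAP1LC3B (chr16:87392276-87392335 on the plus strand), which fell, are given for contrast with their last 60 bases before the start. Capitals mark CACGTG.
LAMP1: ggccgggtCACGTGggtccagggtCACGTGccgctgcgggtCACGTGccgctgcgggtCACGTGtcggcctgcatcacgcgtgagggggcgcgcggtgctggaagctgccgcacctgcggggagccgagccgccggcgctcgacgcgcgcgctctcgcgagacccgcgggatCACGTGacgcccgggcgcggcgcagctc
MCOLN1: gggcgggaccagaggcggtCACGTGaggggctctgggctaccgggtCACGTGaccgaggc
CTSA: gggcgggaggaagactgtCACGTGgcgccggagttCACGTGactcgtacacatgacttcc
ATP6V0D1: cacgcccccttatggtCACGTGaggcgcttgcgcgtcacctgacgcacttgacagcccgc
ATG12: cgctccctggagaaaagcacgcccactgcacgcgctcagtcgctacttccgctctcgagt
MAP1LC3B: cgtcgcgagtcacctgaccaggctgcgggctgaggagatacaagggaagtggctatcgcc

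Of the related factors TFEB, TFE3 and MITF, MITF was too low to test, TFEB was low and not called, and TFE3 fell with SE. TFEB had 2.15 ± 0.242 TPM with AE, 1.99 ± 0.521 with TE, 2.07 ± 0.248 with SE, 2.40 ± 0.175 with HTyr, against 1.82 ± 0.0529 TPM in untreated cells (SD, n = 3 each). TFE3 (ENSG00000068323, chrX:49028726-49043410, minus strand) had 15.3, 14 and 14.4 TPM with AE, 13, 15.8 and 13.3 with TE, 9.80, 8.91 and 9.53 with SE, 12.7, 12.7 and 12.6 with HTyr, against 18.9, 20.5 and 16.8 TPM in untreated cells. All treated libraries were below the untreated ones, and the SE libraries were the lowest. TFE3 was called lower with SE (-0.95, standard error 0.09, adjusted p = 7.49e-07), while AE, TE and HTyr gave -0.35, -0.41 and -0.54. Without untreated replicate 3 the HTyr value was -0.62, past the fold threshold, and that of the mean of the 4 agents -0.64, against -0.56 with all libraries.

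Among initiation genes, BECN1 (ENSG00000126581, chr17:42810134-42833350, minus strand), which encodes Beclin 1 of the lipid kinase complex, had the lowest adjusted p of its role over the 4 agents together. Its level was 66.5, 70.4 and 71.4 TPM with AE, 67.2, 67.6 and 67.9 with TE, 74.5, 73 and 69.1 with SE, 58.9, 62.1 and 68.7 with HTyr, against 51.1, 56.1 and 52.8 TPM in untreated cells. All treated libraries were above the untreated ones, yet its log2 fold changes of 0.38 (AE), 0.34 (TE), 0.43 (SE) and 0.24 (HTyr, standard error 0.06 each, adjusted p at most 0.00675) were under the fold threshold, so it was not called. The exons share 300 bases with antisense PSME3, a proteasome activator gene called higher with every agent. ULK2, a kinase that starts autophagy, was called lower with SE (-0.66, adjusted p = 0.00299), with 5.51 ± 0.162 TPM with AE, 6.19 ± 0.439 with TE, 4.77 ± 1.26 with SE, 6.30 ± 0.860 with HTyr, against 7.70 ± 0.946 TPM in untreated cells (SD, n = 3 each). The ULK2 value was inside the fold threshold without untreated replicate 1 (-0.57) or SE replicate 2 (-0.46). Its better known relative ULK1 had -0.08 in the mean of the 4 agents. ATG13, a ULK partner, had -0.58 with HTyr and every treated library below the untreated ones, and ATG14 and UVRAG, alternative partners of Beclin 1, had 0.26 and -0.31 in the mean of the 4. None of these 4 was called.

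In membrane supply, WIPI1 (ENSG00000070540, chr17:68420948-68457513, minus strand), which reads the lipid made by that kinase complex, had 19.3, 24.2 and 18.3 TPM with AE, 23.8, 22.2 and 19.8 with TE, 17.6, 17.2 and 17.9 with SE, 17.1, 17.8 and 17.4 with HTyr, against 30.5, 27.8 and 28.8 TPM in untreated cells. Every treated library was below the untreated ones. WIPI1 was called lower with SE (-0.71, adjusted p = 2.53e-05) and HTyr (-0.72, adjusted p = 5.19e-05), with AE and TE at -0.49 and -0.40. Without AE replicate 2 the AE value was -0.61, past the threshold. In the mean of the 4 agents it was -0.58, just inside the threshold, and between -0.59 and -0.61 without untreated replicate 2 or 3, AE replicate 2 or TE replicate 1. Its exons share 829 bases with the antisense sulfatase gene ARSG (6.86 TPM on average). WIPI2, ATG9A and ATG2A were called with no agent and had 0.16, 0.07 and 0.04.

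In the conjugation system ATG12 fell with every agent, and the other genes of that system were called with no agent. ATG12 (ENSG00000145782, chr5:115828200-115841837, minus strand), the ubiquitin-like protein joined to ATG5, had 124, 147 and 147 TPM with AE, 159.5, 124 and 169.9 with TE, 77.8, 103 and 91.9 with SE, 209, 164 and 184 with HTyr, against 426, 314 and 346 TPM in untreated cells. The highest treated library, HTyr replicate 1, was far below the lowest untreated one, and SE was lowest of the agents. ATG12 had log2 fold changes of -1.36 (AE), -1.26 (TE), -1.98 (SE) and -0.96 (HTyr, standard error 0.14 each, adjusted p at most 0.000167). The exons share 185 bases, 2.09% of their length, with the antisense AP3S1, an adaptor complex gene, and AP3S1 averaged 342 TPM with AE, 342 TPM with TE, 275 TPM with SE and 436 TPM with HTyr, against 656 TPM in untreated cells, also called lower with each agent. Reads of the shared stretch cannot be told apart here. ATG5, ATG7, ATG3, ATG16L1 and ATG4B, which carry out or reverse the conjugation, had -0.01, 0.02, 0.20, -0.17 and -0.17 in the mean of the 4 agents.

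MAP1LC3B, the only LC3 gene among the members that was tested, fell with SE. MAP1LC3B (ENSG00000140941, chr16:87383953-87404779, plus strand), whose lipid-bound protein is the usual autophagosome marker, had 117, 122 and 124 TPM with AE, 127, 108 and 122 with TE, 47.1, 58 and 55 with SE, 107, 109.8 and 106 with HTyr, against 146, 148 and 159 TPM in untreated cells. Every treated library was below the untreated ones, and the 3 SE libraries were far below all others. MAP1LC3B was called lower with SE (-1.49, standard error 0.08, adjusted p = 2.91e-09), while AE, TE and HTyr gave -0.32, -0.34 and -0.49. Its near copy MAP1LC3B2 had 1.14 to 10.9 TPM and averaged 1.15 TPM with SE and 9.27 TPM in untreated cells, so reads divided between the copies are uncertain. GABARAPL1 was called lower with SE (-0.64) and HTyr (-0.60, adjusted p = 2.92e-05 and 0.000115), with 52.2 ± 3.46 TPM with AE, 50.2 ± 2.24 with TE, 39.1 ± 1.88 with SE, 40.4 ± 4.28 with HTyr, against 61.4 ± 5.70 TPM in untreated cells (SD, n = 3 each). Inside the fold threshold were its SE value without untreated replicate 1 (-0.57) and its HTyr value without untreated replicate 1 (-0.53) or HTyr replicate 2 (-0.51), under median-ratio scaling (-0.57) or without mitochondrially encoded genes (-0.58). GABARAP, the most abundant of the family, had 294 ± 42.8 TPM with AE, 297 ± 29.8 with TE, 259 ± 27.6 with SE, 276 ± 11 with HTyr, against 231 ± 24 TPM in untreated cells (SD, n = 3 each), and GABARAPL2 had 0.05 in the mean of the 4, neither of them called.

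Of the cargo receptors, OPTN fell with every agent and NBR1 with SE and HTyr. OPTN (ENSG00000123240, chr10:13099449-13138308, plus strand), optineurin, a receptor for bacteria and damaged mitochondria, had 20.2, 19 and 17.4 TPM with AE, 18, 21.1 and 17.9 with TE, 12.8, 11.8 and 11.2 with SE, 16.7, 19.7 and 21.3 with HTyr, against 29.8, 34.6 and 31.5 TPM in untreated cells. No treated library reached the untreated range, and the SE libraries lay below every other. OPTN had log2 fold changes of -0.74 (AE), -0.74 (TE), -1.39 (SE) and -0.72 (HTyr, standard error 0.10 each, adjusted p at most 9.68e-05). NBR1 (ENSG00000188554, chr17:43170481-43211689, plus strand), a receptor for ubiquitinated proteins and peroxisomes, had 55.1, 56.1 and 52.6 TPM with AE, 52.9, 49.8 and 53.8 with TE, 39.5, 43.7 and 39 with SE, 49.8, 48.6 and 53.2 with HTyr, against 75.8, 75.6 and 77.9 TPM in untreated cells. The untreated libraries were the highest and close together, and SE was the lowest. NBR1 had log2 fold changes of -0.48 (AE), -0.55 (TE), -0.90 (SE) and -0.59 (HTyr, standard error 0.06 each, adjusted p at most 2.28e-05), of which those with SE and HTyr passed the fold threshold. The HTyr value was inside it without untreated replicate 3 (-0.58), HTyr replicate 1 (-0.58) or HTyr replicate 2 (-0.57), under median-ratio scaling (-0.56) and without mitochondrially encoded genes (-0.58). SQSTM1, which encodes p62, was called with no agent and had 344 ± 6.83 TPM with AE, 272 ± 3.39 with TE, 267 ± 10.2 with SE, 237 ± 13.2 with HTyr, against 338 ± 25.9 TPM in untreated cells (SD, n = 3 each).

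The tether gene TECPR1 (ENSG00000205356, chr7:98214624-98252232, minus strand), which links autophagosomes to lysosomes, was noisy. It had 7.33, 8.90 and 3.40 TPM with AE, 10.01, 7.74 and 4.75 with TE, 5.51, 3.00 and 6.84 with SE, 4.31, 8.45 and 3.75 with HTyr, against 10.2, 13.8 and 9.44 TPM in untreated cells. Treated and untreated libraries overlapped, since TE replicate 1 exceeded untreated replicate 3. TECPR1 was called lower with SE (-1.10, standard error 0.38, adjusted p = 0.0269) and HTyr (-1.02, adjusted p = 0.0488). The SE call was lost without untreated replicate 2 (adjusted p = 0.091) or SE replicate 2 (adjusted p = 0.124). The HTyr call was lost without any 1 of the untreated replicates 1, 2 and 3, AE replicate 1, TE replicate 2, SE replicate 1 or HTyr replicates 1 and 3 (adjusted p = 0.0554 to 0.165), and the call in the mean of the 4 agents (-0.87) without untreated replicate 1 (adjusted p = 0.0613) or 2 (adjusted p = 0.129). With no filter on low values all 3 calls were lost (adjusted p = 0.0614 with SE, 0.106 with HTyr and 0.0625 in the mean of the 4), as they were without the 3 libraries of highest mitochondrially encoded share (adjusted p = 0.127, 0.181 and 0.152 in that order). The HTyr call was also lost with a pseudocount of 0.1, under median-ratio scaling or quantile normalization, without mitochondrially encoded genes and without the mean-variance trend (adjusted p = 0.0509 to 0.0644).

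**Figure D3:**
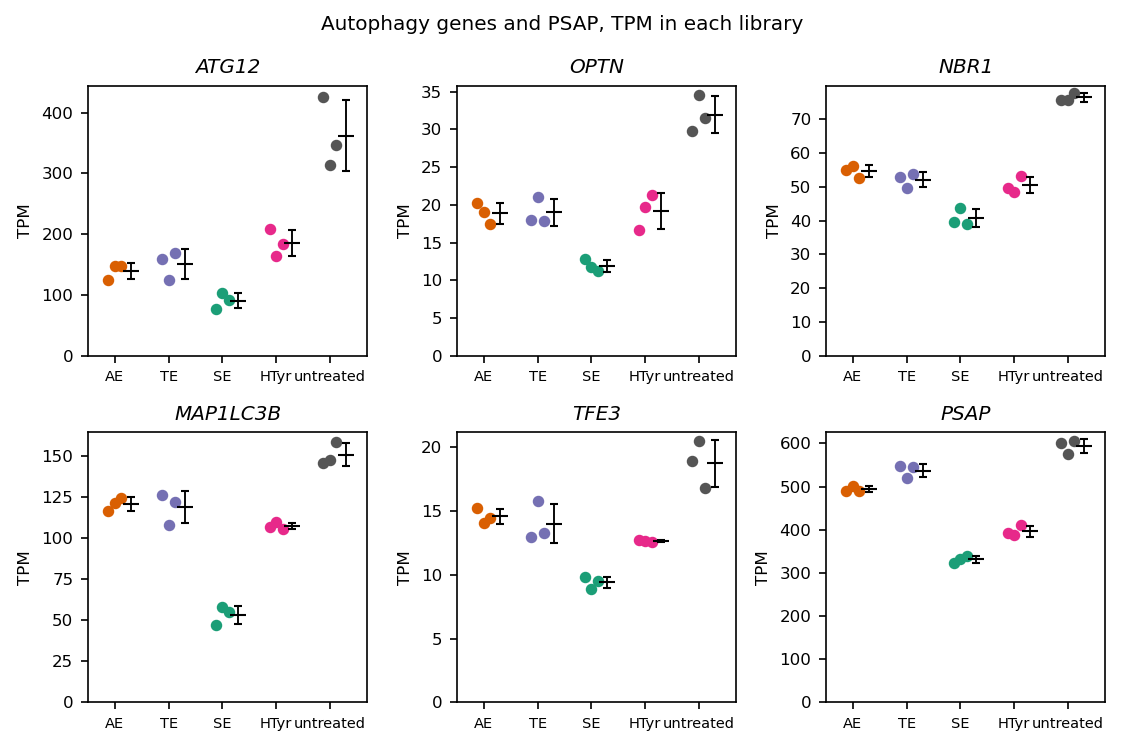
TPM of 5 autophagy genes and of PSAP (y axis, from 0) in each library, with AE, TE, SE, HTyr and untreated cells from left to right. Points are libraries and the black mark is the mean ± SD (n = 3); the untreated points are the highest in each panel, and the SE points the lowest.

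SE was then compared with the other agents, to see which genes set it apart. Against HTyr, GLA was called higher and MAP1LC3B, ATG12 and OPTN lower (4 of 45, 8.89%, where 7.36% of all genes were called, 4.97% higher and 2.38% lower). Against AE, 0 were higher and MAP1LC3B, ATG12, OPTN and TFE3 were lower (8.89%, against 4.72% of all genes, 1.94% higher and 2.78% lower). Against TE, GLA was higher and MAP1LC3B, ATG12, PSAP and OPTN were lower (11.1%, against 8.36% of all genes, 4.7% higher and 3.66% lower). MAP1LC3B had differences of -1.01 from HTyr (95% interval -1.17 to -0.84), -1.18 from AE (-1.34 to -1.01) and -1.15 from TE (-1.32 to -0.99), with adjusted p at most 1.18e-06. OPTN had -0.66, -0.64 and -0.65 against HTyr, AE and TE, with adjusted p at most 0.000641, and without TE replicate 2 the difference from TE was -0.57, inside the fold threshold. These comparisons share the SE libraries, and so do not stand apart from each other.

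ATG12 had -1.03 against HTyr (adjusted p = 0.000181), -0.62 against AE (adjusted p = 0.00955) and -0.73 against TE (adjusted p = 0.00216). The difference from AE was inside the fold threshold without SE replicate 1 (-0.51) or without AE replicate 2 or 3 (-0.58 each). GLA had 0.76 against HTyr and 0.80 against TE (adjusted p = 8.23e-05 and 4.01e-05), and 0.52 against AE, under the fold threshold (95% interval 0.31 to 0.73). TFE3 had -0.61 against AE (adjusted p = 0.000324), which was -0.57 without AE replicate 1 or SE replicate 2, and -0.41 and -0.55 against HTyr and TE. PSAP had -0.70 against TE (adjusted p = 1.27e-07), -0.58 against AE and -0.26 against HTyr.

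**Figure D4:**
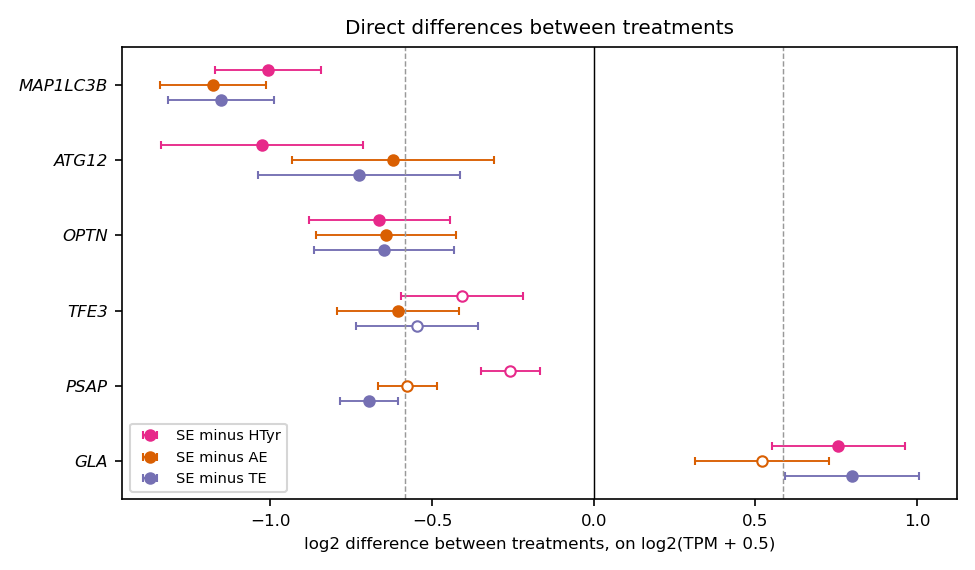
Log2 difference of SE minus HTyr, AE and TE (x axis, log2(TPM + 0.5) scale) for the 6 genes called in at least 1 of these comparisons, with 95% intervals that are not adjusted for the number of genes. Filled points passed both thresholds; MAP1LC3B lies left of the dashed line with its whole interval in each comparison, and GLA lies right of 0.

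AE, TE and HTyr gave no call among the 45 genes when compared with each other. Against HTyr, 0 were called with AE (1.34% of all genes were), where 21 had an unadjusted limma p under 0.05 (46.7%, against 26.2% of all genes), and 0 with TE (0.705% of all genes), where 12 did (26.7%, against 19.6%). Between AE and TE the count was 0 (0.0873% of all genes), where 9 did (20%, against 11.8%). No other test was run on these comparisons. Below the fold threshold, 7 genes (15.6%, where 9.12% of all genes had it at any fold) had an adjusted p under 0.05 for AE against HTyr, all higher with AE: SQSTM1 (0.54, adjusted p = 0.00039), ATG14 (0.40), CTSD (0.39), LAMP1 (0.38), GABARAPL1 (0.37), PSAP (0.32) and TPP1 (0.26). For TE against HTyr there were 2 (4.44%, against 3.29% of all genes), CTSD (0.46) and PSAP (0.44), and for AE against TE 1 (2.22%, against 0.235%), SQSTM1 (0.34, 95% interval 0.21 to 0.46). The missing calls do not show that the agents act alike: the 95% interval of MCOLN1, for example, ran from -0.50 to 0.20 for AE against TE. Over all genes the median difference was itself 0.12 for AE against HTyr and 0.13 for SE against HTyr, so the 7 values higher with AE include that offset. Under median-ratio scaling, these medians moved by -0.12 and -0.13. Whether the 7 genes keep an adjusted p under 0.05 after scaling is not given here.

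The pathway's other genes were read from 7 further lists, 171 genes of which 168 were tested (CTSF, CTSS and GALC were too low). In the mean of the 4 agents 16 rose and 10 fell, 15.5% of them where 17.9% of all genes were called, with a median log2 fold change of 0.10 against 0.05 over all genes. AE gave 17 higher and 8 lower (14.9%, against 16.6% of all genes), TE 9 and 7 (9.52%, against 12.7%), SE 26 and 16 (25%, against 28%), and HTyr 9 and 13 (13.1%, against 16.2%). The share called was thus below that of all genes in each comparison with untreated cells, a difference that was not tested.

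Other genes of the lysosomal membrane and its sorting receptors held 5 higher and 2 lower of 23 in the mean of the 4 agents (30.4%, where 17.9% of all genes were called, 10.4% higher and 7.43% lower). CTNS, the cystine exporter of the lysosome, had 8.23, 8.69 and 11.1 TPM with AE, 7.65, 9.17 and 10.7 with TE, 7.14, 9.74 and 10.5 with SE, 5.28, 8.57 and 7.95 with HTyr, against 2.85, 3.19 and 3.13 TPM in untreated cells. All treated libraries were above the untreated ones. CTNS had log2 fold changes of 1.46 (AE), 1.43 (TE), 1.42 (SE) and 1.10 (HTyr, standard error 0.19 each, adjusted p at most 0.000403). CLN3, a lysosomal membrane protein lost in juvenile Batten disease, had 0.75 in the mean of the 4 agents (adjusted p = 6.78e-05), with some overlap of libraries. CD68, a glycoprotein best known as a macrophage marker, had 2.88, 1.58 and 2.74 TPM with AE, 4.58, 5.95 and 4.95 with TE, 3.27, 2.18 and 2.56 with SE, 6.82, 5.48 and 5.69 with HTyr, against 16.4, 17.3 and 16.8 TPM in untreated cells. Untreated cells were far above every treated library, and the leukocyte markers given above were near 0. CD68 had log2 fold changes of -2.61 (AE), -1.62 (TE), -2.46 (SE) and -1.42 (HTyr, standard error 0.18 each, adjusted p at most 4.01e-05). LAMP3, an inducible relative of LAMP1, had 6.68, 6.76 and 5.68 TPM with AE, 8.55, 8.82 and 8.65 with TE, 2.35, 2.45 and 1.51 with SE, 5.10, 4.15 and 4.83 with HTyr, against 13.3, 12.6 and 14.1 TPM in untreated cells. SE was the lowest and untreated cells the highest, with no overlap. LAMP3 had log2 fold changes of -1.01 (AE), -0.59 (TE), -2.43 (SE) and -1.42 (HTyr, standard error 0.14 each, adjusted p at most 0.00399), and without untreated replicate 3 (-0.55) or TE replicate 1 (-0.58) the TE value was inside the fold threshold.

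Of 21 other V-ATPase subunits and assembly factors, 3 rose and 1 fell in the mean of the 4 agents (19.0%), a share close to the 17.9% of all genes. TMEM199, a factor for pump assembly, had 14.4, 9.68 and 12.7 TPM with AE, 9.30, 9.59 and 9.78 with TE, 17.1, 14.2 and 12.8 with SE, 7.07, 11.5 and 8.73 with HTyr, against 3.93, 4.93 and 4.64 TPM in untreated cells. The treated libraries were all above the untreated ones. TMEM199 had log2 fold changes of 1.34 (AE), 1.01 (TE), 1.6 (SE) and 0.92 (HTyr, standard error 0.17 each, adjusted p at most 0.000824). ATP6V0E2, a small V0 subunit, had 0.73 (adjusted p = 1.06e-05), and DMXL2, which helps the sectors join, -0.66 (adjusted p = 0.000829), both without overlap. Leaving out untreated replicate 3 put DMXL2 (-0.58) just inside the fold threshold. Other lysosomal enzymes gave 6 higher and 1 lower of 34 tested (20.6%, against 17.9% of all genes). GGH, which trims folate polyglutamates, had 1.02 (adjusted p = 5.43e-07), CTSV, a cathepsin close to CTSL, 0.94 (adjusted p = 2.6e-06), and NPC1, the cholesterol exporter, -0.72 (adjusted p = 9.36e-06), each without overlap of treated and untreated libraries.

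The remaining lists hold other autophagy genes, and their shares called in the mean of the 4 agents stand beside the same 17.9% of all genes. Of 31 genes of mTORC1, Rag and TSC nutrient sensing, LAMTOR1, a subunit of the Ragulator that anchors mTORC1 to the lysosome, was higher (0.71, adjusted p = 1.01e-06) and the GTPase gene RRAGD lower (-0.70, adjusted p = 3.22e-05) in that mean (6.45% called), both without overlap. Of 23 genes of other autophagy machinery 0 were higher and 2 lower (8.70%), RUBCN, which restrains the lipid kinase complex, with -0.79 (adjusted p = 0.000585). Of 18 fusion genes VPS33A, of the HOPS tether, was higher (0.83) and EPG5 (-0.81) and PLEKHM1 (-0.64), which also act as tethers, lower (16.7% called, adjusted p at most 0.000404). Of 18 other receptors 1 was lower (5.56%), CCPG1, a receptor for the endoplasmic reticulum. CCPG1 had 16.4, 16.1 and 14.8 TPM with AE, 20.03, 17.4 and 17.6 with TE, 5.25, 6.71 and 6.28 with SE, 11.1, 9.59 and 9.77 with HTyr, against 17.4, 19.1 and 18.4 TPM in untreated cells. The SE libraries were the lowest, HTyr came next, AE lay just below the untreated cells and TE overlapped them. Without untreated replicate 3 the PLEKHM1 value in the mean of the 4 agents was -0.55, inside the fold threshold.

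**Figure D5:**
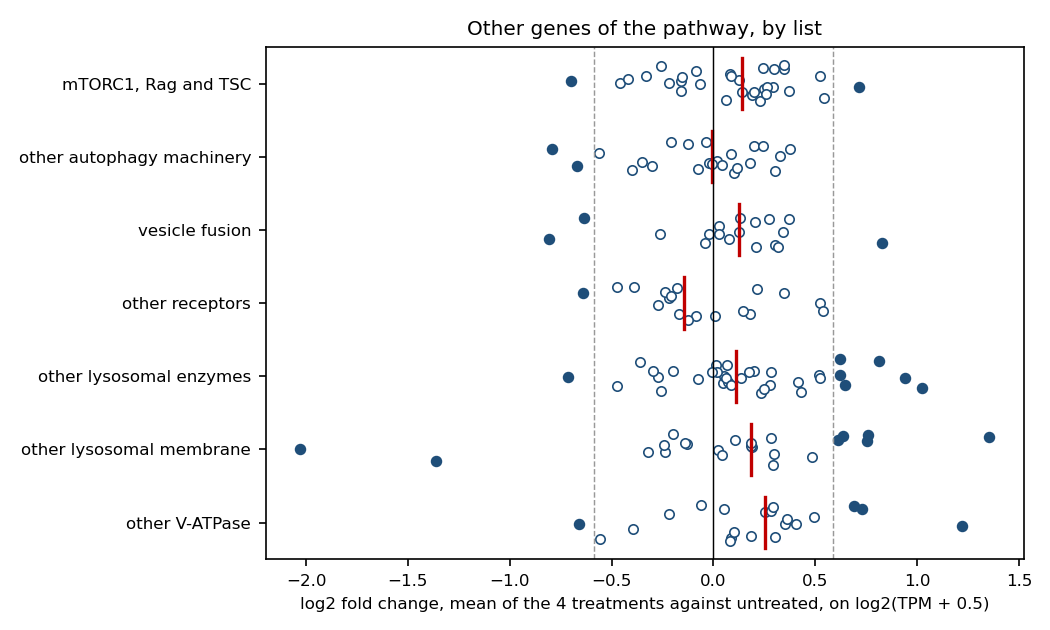
Log2 fold change of 168 other genes of the pathway in the mean of the 4 agents against untreated cells (x axis, log2(TPM + 0.5) scale), by list. Each point is a gene, filled where called, the red bar is the list's median and the dashed lines are the 1.5-fold threshold; the medians lie between -0.15 and 0.25.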

How the data were processed

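RNA from 15 HCT116 libraries (5 groups of 3) was made with a stranded poly(A) kit. The authors filtered, clipped and trimmed the reads, used STAR on GRCh38 and then RSEM for Ensembl genes, tools also named in the submitters' processing notes (versions not given in the sources used here). In the deposited table all values are TPM, computed by the authors for each library. TPM keep no depth, so no counting error can be given and no count model was fitted.

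Columns were assigned to groups from the sample labels. Symbols and coordinates came from GENCODE 44, which names 60463 of the 60664 identifiers, and no 2 libraries were identical. Values were tested as log2(TPM + 0.5) for 14899 genes that reached 1 TPM in 3 or more libraries (45765 left out) in 1 fit of the 5 group means with limma 3.58.1 in R 4.3.3 (mean-variance trend, 10 residual degrees of freedom), with Benjamini-Hochberg adjustment over all genes tested. Calls need an adjusted p under 0.05 and a change over 1.5-fold in either direction. Tables were made with Python 3.11.15 and pandas 2.3.3, figures with matplotlib 3.10.9. Promoter windows are from RefSeq (GRCh38.p14).

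The members, lists and tests were chosen with earlier results of these data known. Genes given in full are those called with all 4 agents, the 6 with the largest called difference between agents, and 1 per role with the lowest adjusted p over the 4 agents together. From each wider list the text takes up to 2 called rises and 2 called falls, the largest in the mean of the 4 with a mean of at least 5 TPM. Alternatives were pseudocounts of 0.1 and 1, no filter or a floor of 5 TPM on the mean, quantile normalization, median-ratio scaling, no mitochondrially encoded genes, only the groups compared, a replicate block, no trend and leaving out each library. Leaving out the 3 libraries of highest mitochondrially encoded share was added after seeing the data.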

Additional observations from a re-analysis of the deposited data

How the results depend on the processing

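The counts of called members moved by over 1.5 times under 1 alternative: HTyr against untreated cells gave 7 without untreated replicate 1, against 11 with all libraries. Leaving out each library in turn gave 7 to 9 calls with AE, 8 to 8 with TE, 14 to 17 with SE, 7 to 12 with HTyr and 10 to 13 in the mean of the 4, 4 to 5 for SE against HTyr, 3 to 5 for SE against AE, 4 to 6 for SE against TE, and 0 to 0 for the comparisons among AE, TE and HTyr. Of 3654 values of named genes under alternatives, 3568 kept direction and side of the threshold, 64 fell below it, 22 passed it and 0 changed sign.

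With the replicate number as a block the counts were 8, 8, 17 and 11 for AE, TE, SE and HTyr against untreated cells, as without it, and no other count changed. Same-numbered libraries did not deviate together more than others did (r of -0.21 to 0.26 over 30 pairs, 3 of them over 0.1). Libraries of different number gave r of -0.23 to 0.28. This cannot tell whether cultures of the same number were run side by side. A fit of only the groups compared could not be given for the mean of the 4 agents. Inside the fold threshold, beside the values given with NBR1, GABARAPL1 and TECPR1, were MCOLN1 with AE (0.57 under median-ratio scaling, 0.58 under quantile normalization), ATP6V1A with SE (0.49 and 0.51, and 0.58 with a pseudocount of 1), LAMP3 with TE (-0.57 with a pseudocount of 1, -0.56 without mitochondrially encoded genes) and TFE3 for SE against AE (-0.58 with a pseudocount of 1 or quantile normalization). Without the 3 libraries of highest mitochondrially encoded share so were ATP6V1A with SE (0.57), ATG12 for SE against AE (-0.51) and CCPG1 in the mean of the 4 (-0.58). Just past it were, under median-ratio scaling, LAMP1 with HTyr (0.59), NBR1 with TE (-0.59), WIPI1 with AE (-0.59), and TFE3 (-0.61) and WIPI1 (-0.63) in the mean of the 4. Quantile normalization put past it PSAP with HTyr (-0.65), NBR1 with AE (-0.59) and TE (-0.61), and WIPI1 in that mean (-0.61). NBR1 was then called lower with all 4 agents. WIPI1 in that mean also passed with a pseudocount of 0.1 (-0.59). Without the 3 libraries of highest mitochondrially encoded share, WIPI1 in that mean and PSAP with HTyr passed (-0.61 each). TPM carry no depth, which limits what can be said of low genes such as TFEB, MCOLN1 and TECPR1.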

Other observations

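Of the 168 wider genes tested, 6 were called higher and 5 lower for SE against HTyr (6.55%, where 7.36% of all genes were called). Against AE the counts were 2 and 6 (4.76%, where 4.72% of all genes were), and against TE 6 and 8 (8.33%, where 8.36% were). These shares were at or below those of all genes or close to them. The genes given here are all lower with SE and were picked after their values were seen. DDIT4 and SESN2 lie outside the naming rule. DDIT4, an inhibitor of mTORC1 induced by stress, had 271, 262 and 243 TPM with AE, 258, 247 and 264 with TE, 93.9, 107 and 113 with SE, 204, 220.3 and 204 with HTyr, against 245, 215 and 239.9 TPM in untreated cells. The 3 SE libraries were below all others, and the other agents lay near untreated cells. DDIT4 had log2 differences of -1.0 for SE against HTyr, -1.31 against AE and -1.29 against TE (adjusted p at most 8.53e-07). SESN2, a leucine sensor that restrains mTORC1, had 24.3, 22.1 and 22 TPM with AE, 24.3, 24.5 and 22.7 with TE, 11.7, 11.7 and 14.3 with SE, 22.4, 22.8 and 22.1 with HTyr, against 26.8, 25.5 and 29.8 TPM in untreated cells. SE was again the lowest group. SESN2 had -0.82, -0.84 and -0.91 for SE against HTyr, AE and TE (adjusted p at most 1.62e-05). CCPG1 and LAMP3, which the naming rule took and which are given above, were also called lower with SE than with each other agent. The differences from HTyr, AE and TE were -0.70, -1.31 and -1.52 for CCPG1 and -1.01, -1.42 and -1.84 for LAMP3.

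The make-up of the LC3 and GABARAP family differed between groups on the TPM scale, which is per length. MAP1LC3B over GABARAP was 0.364 to 0.468 with AE, 0.387 to 0.411 with TE, 0.191 to 0.227 with SE and 0.378 to 0.406 with HTyr, against 0.623 to 0.712 in untreated cells. The SE libraries were the lowest and the untreated ones the highest. The ratio was chosen after its parts were seen and was not tested.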
